A study of Mus musculus with 13 samples.

Results

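The genes examined were 10 mouse genes that govern how pyruvate enters mitochondria and becomes acetyl-CoA: the pyruvate dehydrogenase kinase genes Pdk1, Pdk2, Pdk3 and Pdk4, the complex subunit genes Pdhb and Dlat, the phosphatase genes Pdp1 and Pdp2, and the carrier genes Mpc1 and Mpc2. They were taken by symbol from 29094 genes, all 10 were found in all 13 libraries, and all 10 passed the filter on low values in both sets of libraries. RNA was sequenced from wild-type FvB mice, in ventricles at embryonic day 17 (E17) and postnatal days (PN) 1, 10, 28 and 90 (5 libraries, 1 per stage), in 4 cardiomyocyte libraries (2 neonatal, of PN1 to PN2 and of PN1, and 1 each of PN30 and PN67) and in 4 cardiac fibroblast libraries (2 neonatal, with titles of PN1 to PN3 and of PN1 to PN2, and 1 each of PN28 and PN60). Atria were removed from every heart, and no group carried a transgene or received a treatment in the labels. Neonatal cardiomyocytes came from preplating, in which fibroblasts stick to a dish first, and PN30 and PN67 cardiomyocytes from Langendorff perfusion, in which enzymes pass through the coronary vessels, so in cardiomyocytes the effects of stage and of isolation cannot be told apart. All fibroblasts were taken by preplating after digestion. Ribosomal RNA was removed before the ventricle libraries were prepared, whereas the cells were prepared with a TruSeq kit, so levels in ventricles and in cells also differ in library type. The labels do not state whether neonatal libraries of 1 cell type came from separate animals or cultures. The spread between them, on which the p-values in cells rest in part, may therefore be technical. The error of the cell fit pools that spread with the difference between the 2 later ages of each cell type. In ventricles, with 1 library per stage, the error is the departure of the stages from a straight line.

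Pyruvate made by glycolysis crosses the inner mitochondrial membrane through a carrier built of MPC1 and MPC2. Inside, the pyruvate dehydrogenase complex turns it into acetyl-CoA: an E1 heterotetramer with alpha chains from Pdha1 and beta chains from Pdhb removes carbon dioxide, the E2 core from Dlat transfers the acetyl group, and E3 from Dld restores the lipoyl arm. Kinases encoded by Pdk1 to Pdk4 phosphorylate E1 alpha and switch the complex off, and phosphatases encoded by Pdp1 and Pdp2 switch it back on. In the heart this switch sets glucose against fatty acid as the source of acetyl-CoA, and the heart turns from carbohydrate to fatty acid after birth.

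Values are FPKM, a fragment count divided by transcript length and library size, summed over the transcripts of a gene and scaled within the 8 cell libraries or within the 5 ventricle libraries. Because FPKM is per length, levels of different genes can be set side by side within a library. Differences are on the log2(FPKM + 1) scale, with the standard error (SE) of limma, a linear model fitted over all genes, and with p-values adjusted by Benjamini-Hochberg over all genes tested (12076 in cells, 11621 in ventricles). The threshold for a call was an adjusted p of 0.05. For each cell type the 2 later ages were pooled as 1 later class, and neither age has a replicate of its own.

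The libraries carried their labelled cells, with other cells beside them. Of 10 cardiomyocyte marker genes, 9 could be measured in cells, and their summed level was 11650 to 12560 FPKM in neonatal and 44120 to 45220 FPKM in later cardiomyocytes. In fibroblasts that sum was 1301 and 1108 FPKM in the neonatal libraries and 26.9 and 34.9 FPKM at PN28 and PN60. Fibroblast markers (7 of 10 measured) summed to 2313 to 2876 FPKM in fibroblasts and 250 to 280 FPKM in cardiomyocytes. Red cell markers (4 of 6 measured) stood at 15380 and 20440 FPKM in neonatal against 1103 and 712 FPKM in later cardiomyocytes, and at 4774 FPKM in the E17 ventricle against 181 to 233 FPKM in the other ventricles. Neonatal libraries of a cell type agreed closely over 12076 genes, with a Spearman rho across genes of 0.993 in cardiomyocytes and 0.989 in fibroblasts. Scaling mattered for directions: with the FPKM as deposited the median change of all genes moved from 0.10 to -0.19 in cardiomyocytes, from -0.02 to -0.30 in fibroblasts and from 0.01 to -0.09 per stage in ventricles.

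Of the kinases, Pdk2 and Pdk1 rose in cardiomyocytes after the neonatal period, Pdk3 fell, and Pdk4 did not pass the test, its 2 later libraries standing far apart. Over the 10 genes, 7 rose and 1 fell in cardiomyocytes, where 37.2% of all genes tested rose and 29.8% fell (with the FPKM as deposited, 40.9% of called genes were higher, against 55.6%, and 36.5% once mitochondrially encoded genes were removed). In fibroblasts 1 of the 10 rose and 6 fell, beside 19.7% and 20.8% of all genes, 40.5% in either direction, and 3 or 2 fell without the first or the second neonatal fibroblast library (the higher share of called genes went from 48.7% to 24.0% under both other scalings). The 9 cardiomyocyte markers measured also rose in cardiomyocytes, with a median of 2.14, and all 7 endothelial markers fell there, with a median of -1.02. Their part in the members' changes was not tested. The classes did not overlap for 9 of the 10 genes in cardiomyocytes, beside 89.5% of all genes, and for 9 of the 10 in fibroblasts, beside 69.4%, so classes that did not overlap were common among all genes.

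The 2 cell types also differed in how the 10 genes moved. Cardiomyocyte change minus fibroblast change was called for 9 genes, 8 with a higher and 1 with a lower value, beside 58.6% of all genes, 32.2% higher and 26.3% lower. Pdk2 had the widest difference (4.21, SE 0.29), followed by Pdk4 (3.16, SE 0.73) and Pdk1 (3.03, SE 0.25), and Pdk3 was the lower one.

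**Figure D1:**
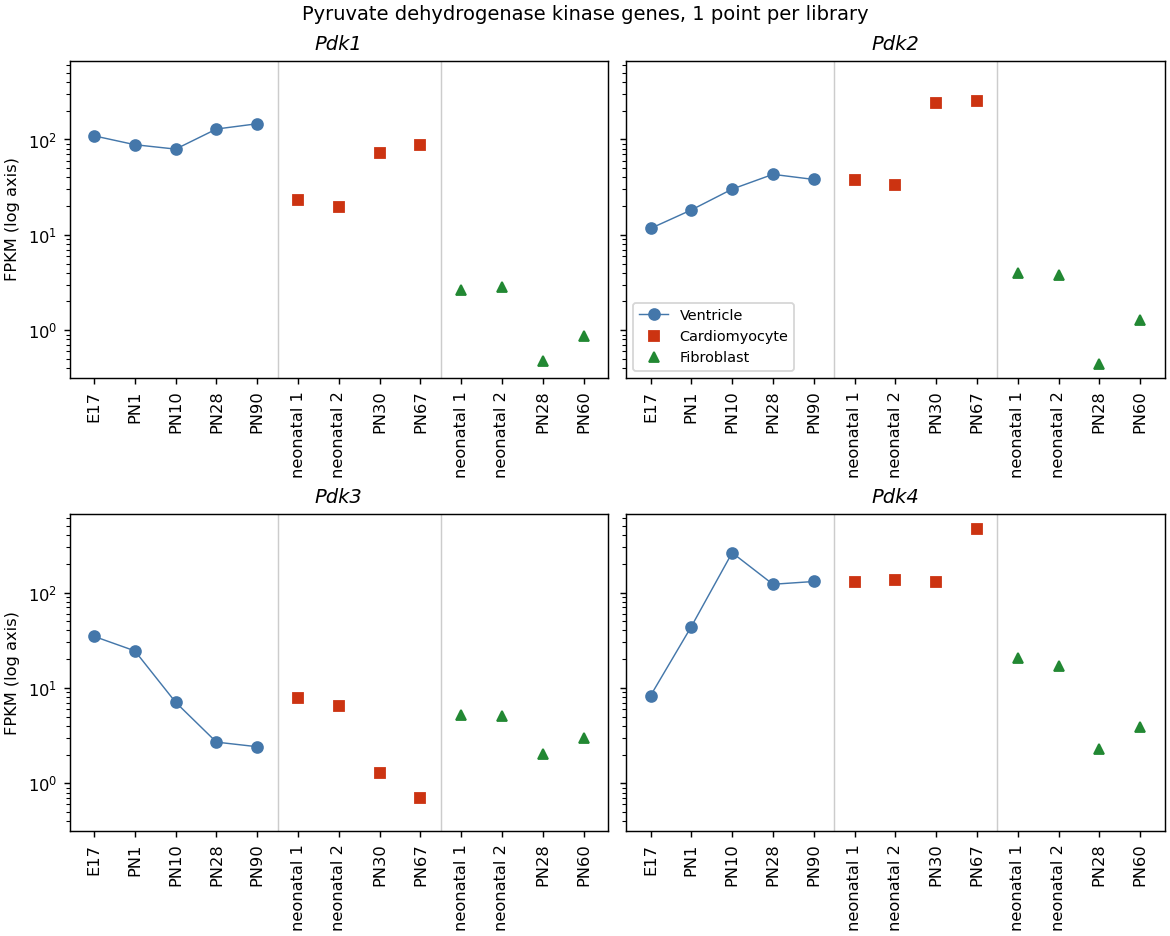
FPKM (log axis) of the 4 kinase genes in each of the 13 libraries, with 1 point per library; blue circles are ventricles joined in stage order, red squares cardiomyocytes and green triangles fibroblasts. Pdk2 stood at 242 and 253 FPKM in the later cardiomyocytes against 33.1 and 37.4 in the neonatal ones, and Pdk4 at PN67 stood at 468 FPKM against 127.5 to 137 in the other 3 cardiomyocyte libraries.

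The promoters of the 4 kinase genes are shown because these genes moved in different ways across the same libraries. Each is the 250 bases before the RefSeq start (GRCm38.p6) read 5′ to 3′ on the gene's strand, with capitals where the hypoxia core ACGTG was found on either strand. Pdk1 is chr2:71872974-71873223 on the plus strand, Pdk2 is chr11:95041372-95041621 on the minus strand, Pdk3 is chrX:93832151-93832400 on the minus strand and Pdk4 is chr6:5496279-5496528 on the minus strand.
Pdk1: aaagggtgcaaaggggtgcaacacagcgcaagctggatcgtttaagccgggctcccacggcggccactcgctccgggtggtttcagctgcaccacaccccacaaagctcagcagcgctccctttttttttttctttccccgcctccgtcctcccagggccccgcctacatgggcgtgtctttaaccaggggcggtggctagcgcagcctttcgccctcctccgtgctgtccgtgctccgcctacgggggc
Pdk2: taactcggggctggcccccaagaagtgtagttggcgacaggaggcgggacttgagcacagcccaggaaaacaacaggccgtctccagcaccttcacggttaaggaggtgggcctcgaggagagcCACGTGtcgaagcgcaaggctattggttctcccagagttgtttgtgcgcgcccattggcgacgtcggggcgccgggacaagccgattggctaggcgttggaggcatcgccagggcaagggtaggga
Pdk3: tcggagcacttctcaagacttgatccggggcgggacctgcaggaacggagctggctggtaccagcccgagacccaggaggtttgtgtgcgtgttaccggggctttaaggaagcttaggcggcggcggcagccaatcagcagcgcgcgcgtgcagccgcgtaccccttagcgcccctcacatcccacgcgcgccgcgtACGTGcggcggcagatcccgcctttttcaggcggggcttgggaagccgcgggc
Pdk4: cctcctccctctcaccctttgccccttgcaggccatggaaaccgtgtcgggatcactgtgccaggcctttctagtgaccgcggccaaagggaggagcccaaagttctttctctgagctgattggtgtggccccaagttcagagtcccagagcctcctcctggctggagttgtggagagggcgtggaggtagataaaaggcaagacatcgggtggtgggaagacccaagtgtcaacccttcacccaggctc
Pdk2 held ACGTG on both strands at overlapping positions 126 and 125 bases before the start, and Pdk3 held it at 53 bases. The windows of Pdk1 and Pdk4 shown held none of the 6 motifs searched. RefSeq windows were given for 9 of the 10 genes, and ACGTG was present in 16.6% of the 32851 windows listed. Among the other members ACGTG lay in the windows of Pdhb (248 bases) and Pdp2 (219 and 218 bases, overlapping), and a second Pdk1 window held the glucocorticoid receptor sequence AGAACA at 153 and 138 bases, a motif found in 16.1% of windows. The other motifs searched on both strands were TCAAGGTCA (0.387% of windows), its core AAGGTCA (4.08%), GTAAACA (3.17%) and GCGCATGC (2.26%), and no member's window held them. A match is a description of letters, not of a bound site.

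Pdk2 encodes a kinase found in most tissues and lies at chr11:94887572-94902668 on the minus strand (mm9, as all gene positions that follow). It stood at 37.4 and 33.1 FPKM in neonatal cardiomyocytes and at 242 and 253 FPKM at PN30 and PN67. The later libraries were 7.04 times the neonatal mean, with a log2 difference of 2.78 (SE 0.21, adjusted p = 2.33e-05). In fibroblasts it was low throughout, at 3.99 and 3.75 FPKM in neonatal libraries and 0.447 and 1.27 FPKM at PN28 and PN60 (log2 difference -1.43, SE 0.21, adjusted p = 0.00154). This left the later cardiomyocyte mean at 289 times the later fibroblast mean, a ratio that rests on a low fibroblast mean of 0.857 FPKM. With 1 FPKM added to each value the log2 difference was 7.10 (SE 0.21, adjusted p = 7.64e-08). It was the widest gap between the cell types among the 10 genes. Ventricles held 11.7, 18.2, 30.2, 43.1 and 38.1 FPKM from E17 to PN90, a slope of 0.44 log2 units per stage (SE 0.08, adjusted p = 0.00957), which missed the threshold without the E17 library (0.36, adjusted p = 0.0896). Gm11513 overlaps Pdk2 on the opposite strand, and its deposited level did not exceed 0.182 FPKM in any library.

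Pdk1, at chr2:71711281-71741915 on the plus strand, encodes a kinase known as a target of the hypoxia factor HIF1. It stood at 23.2 and 19.4 FPKM in neonatal and 72.7 and 87.5 FPKM in later cardiomyocytes, with no overlap between the classes. The log2 difference was 1.86 (SE 0.17, adjusted p = 6.26e-05), a ratio of means of 3.77. Fibroblast libraries read 2.61 and 2.82 FPKM when neonatal and 0.475 and 0.869 FPKM later (log2 difference -1.16, SE 0.17, adjusted p = 0.00177). In ventricles Pdk1 was abundant at every stage, at 109, 88.1, 79.2, 129 and 146 FPKM in stage order. The ventricle slope did not pass the test (0.14, SE 0.09, adjusted p = 0.263), and the lowest library was PN10. A large part of this ventricle level came from Pdk1-206, a transcript of 777 bases annotated without a reading frame, which held 46.4% to 56.1% of Pdk1 FPKM in ventricles and 16.8% to 30.4% in cardiomyocytes. Kept to its only coding transcript, Pdk1-201, the gene rose in cardiomyocytes by a log2 difference of 2.23 (adjusted p = 1.24e-05, protein-coding transcripts only, an alternative added after the data were seen).

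Pdk3 ran the other way. It lies at chrX:91009946-91077540 on the minus strand, and was measured as 1 coding transcript, Pdk3-201. Ventricles held 34.7, 24.4, 7.07, 2.70 and 2.42 FPKM from E17 to PN90, lower at each later stage, with a slope of -0.96 log2 units per stage (SE 0.11, adjusted p = 0.00438). Among the 10 genes it was the only one called downward in ventricles. Neonatal cardiomyocytes read 7.78 and 6.39 FPKM and later ones 1.29 and 0.698 FPKM, a log2 difference of -2.03 (SE 0.20, adjusted p = 8.19e-05). Fibroblasts fell less, from 5.15 and 5.07 FPKM to 2.02 and 2.96 FPKM (log2 difference -0.82, SE 0.20, adjusted p = 0.0144). That fibroblast call was lost without either neonatal library (adjusted p = 0.0699 and 0.0738). The difference between the falls was -1.21 (SE 0.28, adjusted p = 0.00814).

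At birth Pdk3 did not differ between the cell types beyond the test (0.40, SE 0.20, adjusted p = 0.152), and later it was higher in fibroblasts (-0.81 for cardiomyocytes minus fibroblasts, SE 0.20, adjusted p = 0.00655). Without the PN67 cardiomyocyte library this later difference was -0.60 (adjusted p = 0.0510). Of the 10 genes it was the only one with a higher fibroblast level in the later class. Beside the fall in cardiomyocytes, endothelial markers (7 of 7 measured) summed to 3319 and 3758 FPKM in neonatal and 1237 and 2038 FPKM in later cardiomyocytes, and all 7 fell. The 3 red cell markers tested fell as well, with a median of -4.25. Their part in the Pdk3 values was not tested.

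Pdk4 encodes the kinase best known for rising with fasting and fatty acid supply, and lies at chr6:5433351-5446309 on the minus strand. In ventricles it read 8.29 FPKM at E17, 44.0 at PN1, 261 at PN10, 122 at PN28 and 131 at PN90. The peak was at PN10, and the highest stage was 31.5 times the lowest. As a straight slope this course did not pass the test (0.91 log2 units per stage, SE 0.31, adjusted p = 0.0642). It passed when PN10 was left out (0.91, adjusted p = 0.0152), when PN90 was left out (1.37, adjusted p = 0.0431), and as PN28 and PN90 against E17 and PN1 (2.64, adjusted p = 0.0429). Without the E17 library the slope was 0.355, the lowest of the 5 fits that left out 1 library, and it was not called. The step from PN1 to PN10 was 2.54 log2 units, and 29 of 11621 genes had a larger absolute difference between those libraries.

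Steps between neighbouring ventricle libraries have no replicate and no test. From E17 to PN1, Pdk4 (2.28) and Pdp1 (1.00) were more than 1 log2 unit higher and 0 members more than 1 unit lower, beside 2.35% and 1.45% of all genes. From PN1 to PN10, Pdk4 and Mpc1 (1.43) were higher by that size and Pdk3 (-1.66) lower, beside 3.05% and 3.47%. From PN10 to PN28, Pdp2 (1.19) was higher and Pdk3 (-1.12) and Pdk4 (-1.09) lower, beside 3.60% and 2.50%. No member differed by that size from PN28 to PN90, where 0.465% of all genes were higher and 0.508% lower.

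In isolated cardiomyocytes Pdk4 was already high in the neonatal libraries, at 130 and 137 FPKM. The PN1 ventricle, of another library type and scaled apart, held 44.0 FPKM. A part of isolation in the neonatal level was not tested. In cardiomyocytes Pdk4 read 127.5 FPKM at PN30 and 468 FPKM at PN67, so that the PN30 library lay just below both neonatal ones and the PN67 library well above all 3. The later minus neonatal difference of 0.87 (SE 0.52) did not pass the test (adjusted p = 0.169). It was -0.062 (adjusted p = 0.855) without PN67 and 1.81 (adjusted p = 0.00140) without PN30, so the 1 library decides it. Between PN67 and PN30 the ratio was 3.67 and the log2 difference 1.87, and 23 of 12076 genes had a larger absolute difference. The other 9 members differed by -0.43 (Pdk3) to 0.26 (Pdk1), and none was more than 1 unit lower, beside 0.571% of all genes.

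PPAR target genes, a set known to respond to fatty acids, were compared with Pdk4 because it is commonly counted among them. Of 16 tested, 4 were more than 1 log2 unit higher at PN67 than at PN30 in cardiomyocytes, beside 0.985% of all genes. Among them were Angptl4 (4.90 to 23.5 FPKM), which restrains lipoprotein lipase, Txnip (118.5 to 383 FPKM), which curbs glucose uptake, and Ucp3 (16.3 to 43.8 FPKM), a mitochondrial carrier. These genes were chosen after their values were seen, and with 1 library per age there is no test. From E17 to PN1 in ventricles 13 of the 16 were more than 1 unit higher, beside 2.35% of all genes, as was Pdk4 itself. From PN1 to PN10, where Pdk4 was higher by 2.54, the list median was 0.22. In that step 1 of the 16 was more than 1 unit higher and 1 lower, beside 3.05% and 3.47% of all genes.

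From PN10 to PN28 the list median was 0.0072. By more than 1 unit, 3 of the 16 were lower and 1 was higher, beside 2.50% and 3.60% of all genes. The lower ones included Angptl4 (24.0 to 3.70 FPKM) and Ucp3 (38.7 to 13.1 FPKM), while Pdk4 went from 261 to 122 FPKM. Neonatal cardiomyocytes also held more Angptl4 than later ones (127.5 and 164.5 FPKM against 4.90 and 23.5 FPKM, log2 difference -3.60, SE 0.58, adjusted p = 0.000915), while Pdk4 did not pass the test in that comparison.

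Fibroblasts held 20.3 and 17.1 FPKM of Pdk4 when neonatal and 2.31 and 3.91 FPKM later, a log2 difference of -2.28 (SE 0.52, adjusted p = 0.0105). The call was lost without the first neonatal library (-2.16, adjusted p = 0.0608) or the second (-2.40, adjusted p = 0.0513). Fitted on fibroblasts alone the SE was 0.26 and the adjusted p 0.00328. Cardiomyocyte markers moved with this fall. As a share of the neonatal cardiomyocyte level, the 9 markers stood at a median of 10.1% (range 6.35% to 11.2%) in the first and 8.48% (6.26% to 9.66%) in the second neonatal fibroblast library. Pdk1 stood at 12.3% and 13.3%, Pdk2 at 11.3% and 10.6% and Pdk4 at 15.3% and 12.8%, all above the marker range of the same library, whereas Pdk3 stood at 72.7% and 71.5%.

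At PN28 and PN60 the marker median was 0.0645% and 0.0623% of later cardiomyocytes, and 4 of the 9 markers were below 1 FPKM. There Pdk1 was at 0.593% and 1.09%, Pdk2 at 0.180% and 0.511% and Pdk4 at 0.776% and 1.31%, all above the marker range. The part of cardiomyocyte RNA in the fibroblast falls of Pdk1, Pdk2 and Pdk4 was not tested. The same markers differed between the fibroblast classes by a median of -4.20 log2 units, beyond the value of each of the 4 kinases.

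**Figure D2:**
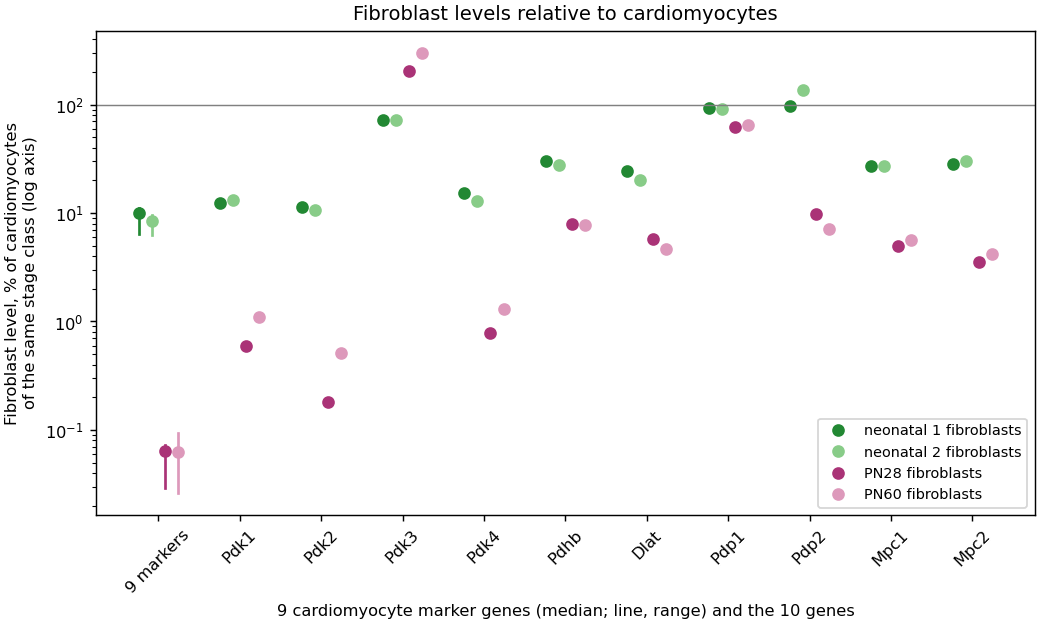
Level in each of the 4 fibroblast libraries as a percentage (log axis) of the mean of cardiomyocytes of the same stage class, for 9 cardiomyocyte markers (point, median; line, range) and the 10 genes; the grey line marks 100%. In neonatal fibroblasts Pdk1, Pdk2 and Pdk4 lay at 10.6% to 15.3%, above the marker range of the same library (medians 10.1% and 8.48%), and Pdk3, Pdp1 and Pdp2 lay at 71.5% or above.

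The make-up of kinase RNA differed between ventricles, cardiomyocytes and fibroblasts and between ages. Ventricles and cells also differed in library type, and neonatal and later cardiomyocytes in isolation, and these effects cannot be told apart. In the E17 ventricle Pdk1 held 66.6% of the summed FPKM of the 4 kinases, Pdk3 21.2%, Pdk2 7.12% and Pdk4 5.06%. By PN10 Pdk4 held 69.2% and Pdk3 1.87%, and at PN28 and PN90 Pdk1 (43.4% and 46.1%) and Pdk4 (41.2% at both) shared the lead. Neonatal cardiomyocytes were led by Pdk4 (65.5% and 69.9%), the PN30 library by Pdk2 (54.6%) and the PN67 library again by Pdk4 (57.8%, with Pdk2 at 31.3%). Pdk3 shrank from 3.93% and 3.27% in neonatal cardiomyocytes to 0.290% and 0.0862% later. In fibroblasts it kept a large share, 16.1% and 17.6% when neonatal and 38.4% and 32.9% later. Pdk4 led all 4 fibroblast libraries.

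Which kinase led in ventricles depended on the short Pdk1-206 transcript. Counting protein-coding transcripts only, Pdk1 led in 1 library, E17, at 45.7%, and Pdk4 was ahead at PN1 (35.8% against 31.3%), at PN28 (53.0% against 27.7%) and at PN90 (53.1% against 31.2%). Across all transcripts Pdk1 led in 4 libraries, Pdk4 in 8 and Pdk2 in 1. The lead of Pdk2 at PN30 held with coding transcripts (56.7%). No test was made of these shares.

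**Figure D3:**
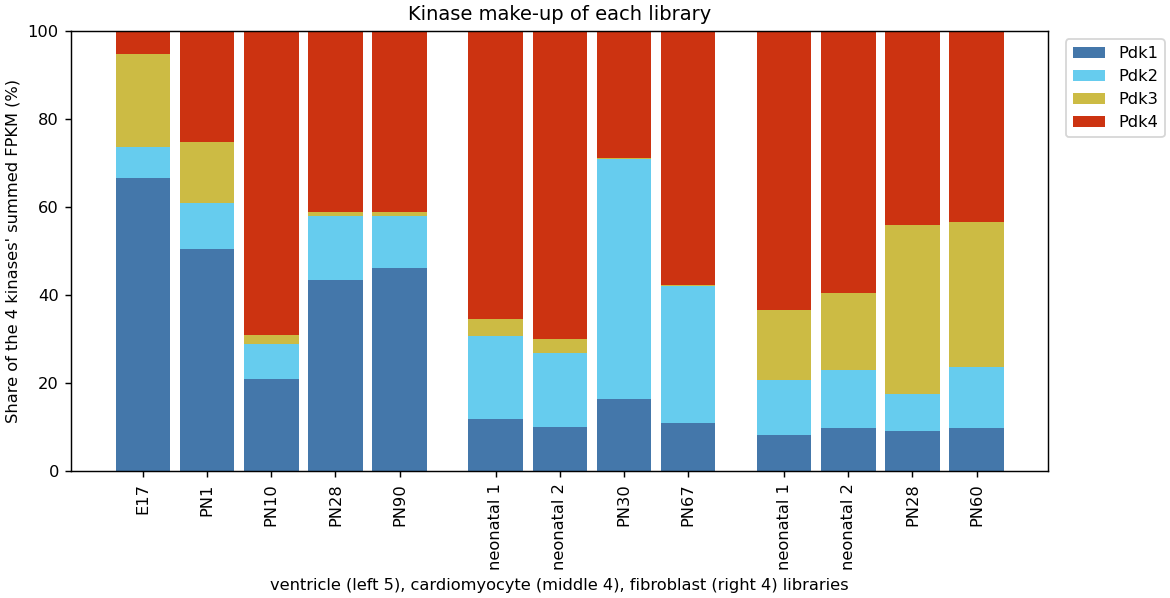
Share (%) of each kinase gene in the summed FPKM of Pdk1, Pdk2, Pdk3 and Pdk4, 1 stacked bar per library, ventricles at left, cardiomyocytes in the middle and fibroblasts at right. Pdk3 shrinks from 21.2% at E17 to 0.762% at PN90 in ventricles, and Pdk2 reaches 54.6% in PN30 cardiomyocytes.

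Summed over the 4 genes, kinase FPKM was 198 and 195 in neonatal cardiomyocytes and 444 and 810 at PN30 and PN67. The fibroblast sums were 32.1 and 28.7 when neonatal and 5.25 and 9.01 later. In ventricles the sum went from 164 at E17 through 175, 378 and 296 to 317 at PN90. Set against the summed phosphatases Pdp1 and Pdp2, kinase RNA stood at a ratio of 14.6 and 14.3 in neonatal cardiomyocytes, 19.9 at PN30 and 38.6 at PN67. Fibroblasts had ratios of 2.53 and 2.22 and later 0.565 and 0.941. Phosphatase RNA exceeded kinase RNA in the later fibroblasts alone among the 13 libraries. Neonatal fibroblast libraries also carried cardiomyocyte RNA, with the middle marker reaching 10.1% and 8.48% of its neonatal cardiomyocyte level. At PN28 and PN60 the same measure was 0.0645% and 0.0623% of the later cardiomyocyte level. The part of this RNA in the fibroblast kinase sums, shares and ratios, and in their fall, was not tested.

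The complex subunits rose in cardiomyocytes and were not called in fibroblasts. Pdhb (chr14:8998505-9005506, minus strand) read 194 and 176 FPKM in neonatal and 665 and 530 FPKM in later cardiomyocytes (log2 difference 1.68, SE 0.14, adjusted p = 3.28e-05). In fibroblasts it read 56.4 and 51.7 FPKM and later 47.1 and 46.0 FPKM (-0.21, SE 0.14, adjusted p = 0.250). The result depended on scaling, and was called at -0.56 with the FPKM as deposited (adjusted p = 0.0120). Dlat (chr9:50442738-50467885, minus strand) read 55.9 and 45.7 FPKM in neonatal and 265 and 220 FPKM in later cardiomyocytes (2.24, SE 0.18, adjusted p = 3.02e-05). In fibroblasts the Dlat classes overlapped, at 12.4 and 10.2 FPKM against 14.0 and 11.2 FPKM (0.14, SE 0.18, adjusted p = 0.558, and -0.19 with the FPKM as deposited).

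Both subunits also rose in ventricles, where 7 of the 10 genes rose (3 without the E17 library) and 1 fell, beside 20.4% and 14.6% of all genes, 34.9% in either direction (58.3% of called genes were higher, 27.0% with the FPKM as deposited and 30.5% with mitochondrially encoded genes removed). In bulk tissue, more cells of a type and more RNA per cell cannot be told apart, and the 7 measured cardiomyocyte markers summed to 13230 FPKM at E17 and 35440 FPKM at PN90. Dlat read 56.1, 78.0, 103, 171 and 152 FPKM over the stages (slope 0.40, SE 0.07, adjusted p = 0.00940), a call lost without E17 (0.36, adjusted p = 0.0834). Pdhb read 201, 304, 331, 456 and 422 FPKM (slope 0.27, SE 0.07, adjusted p = 0.0301), a call lost without E17, PN1 or PN28 (adjusted p = 0.241, 0.0605 and 0.0914) and under both other scalings (adjusted p = 0.171 and 0.115). A short Dlat transcript with no reading frame, Dlat-202 of 770 bases, held 43.1% to 47.2% of Dlat FPKM in cardiomyocytes, and with coding transcripts only Dlat rose by 2.35 there (adjusted p = 2.28e-05).

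The other genes of the complex and of its sister complex for branched-chain amino acids were counted as a list of 13, of which 12 were tested. All 12 rose in cardiomyocytes, with a median log2 difference of 2.28 beside 0.10 over all genes. Pdha1, the E1 alpha chain that the kinases phosphorylate, read 130 and 113 FPKM and later 690 and 621 FPKM (2.42, SE 0.14). Dld rose by 2.23 (SE 0.21), Pdhx, which ties E3 to the core, by 2.1 (SE 0.18), and Pdpr, a regulator of the phosphatase, by 2.34 (SE 0.17). The lipoyl-making enzymes rose by 1.53 (Lias), 0.82 (Lipt1) and 0.34 (Lipt2). The branched-chain genes Bckdha (2.99), Bckdhb (2.72), Dbt (2.80) and their phosphatase Ppm1k (2.80) rose more than their kinase gene Bckdk (1.61), though no difference between those genes was tested.

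In fibroblasts 1 of the 12 rose, Dbt (1.38, SE 0.29), 2 fell, Bckdk (-0.44) and Lipt2 (-0.47), and 9 were not called, with a fall about as common as among all genes (20.8%; 19.7% rose). In ventricles 9 of the 12 rose and 0 fell, beside 20.4% and 14.6% of all genes, with Pdha1 at 245 FPKM at E17 and 890 FPKM at PN90. For each of Pdha1, Pdhb and Dlat the difference of changes between the cell types was called: 2.50 (SE 0.20) for Pdha1, 1.89 (SE 0.19) for Pdhb and 2.1 (SE 0.25) for Dlat.

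The phosphatases split. Pdp1, the calcium-stimulated form, lies at chr4:11885331-11893599 on the minus strand and barely differed between libraries of cells. It read 12.6 and 12.6 FPKM in neonatal and 14.8 and 12.6 FPKM in later cardiomyocytes (0.11, SE 0.13, adjusted p = 0.458, with the sign turned to -0.22 with the FPKM as deposited, -0.32 with mitochondrially encoded genes removed and -0.068 with its most abundant coding transcript alone). Fibroblasts read 11.7 and 11.5 FPKM and later 8.51 and 9.0 FPKM (-0.37, SE 0.13, adjusted p = 0.0567). In the later class Pdp1 was higher in cardiomyocytes (0.59, SE 0.13, adjusted p = 0.00354), the smallest called gap of the 10 genes there. Its FPKM was spread over 6 coding transcripts. In ventricles it read 9.20, 19.4, 20.1, 21.9 and 24.2 FPKM, a slope of 0.28 (SE 0.08, adjusted p = 0.0423). This slope lost its call without E17, PN10, PN28 or PN90 in turn (0.10 to 0.36, adjusted p = 0.333, 0.0540, 0.101 and 0.0722).

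Pdp2 (chr8:107115368-107120736, plus strand), the form that responds to insulin, was scarce at birth and higher later. It read 1.04 and 1.12 FPKM in neonatal and 7.50 and 8.38 FPKM in later cardiomyocytes (2.1, SE 0.15, adjusted p = 1.76e-05), 7.35 times the neonatal mean. The ratio of Pdp2 to Pdp1 in cardiomyocytes was 0.0826 and 0.0892 in the neonatal and 0.506 and 0.664 in the later libraries. In fibroblasts Pdp2 read 1.05 and 1.47 FPKM and later 0.779 and 0.567 FPKM (-0.43, SE 0.15, adjusted p = 0.0495), and that call was lost in 7 of 8 fits that left out 1 library (adjusted p = 0.0573 to 0.276). In ventricles it read 1.83, 1.74, 2.79, 7.61 and 7.96 FPKM (slope 0.50, SE 0.09, adjusted p = 0.0102), with the step between PN10 and PN28. At birth neither phosphatase differed between the cell types beyond the test (Pdp1 0.11, adjusted p = 0.527, and Pdp2 -0.11, adjusted p = 0.563).

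Both carrier genes rose in cardiomyocytes. Mpc1 (chr17:8475769-8490526, plus strand) read 92.2 and 80.5 FPKM in neonatal and 665 and 730 FPKM in later cardiomyocytes. Its log2 difference of 3.00 (SE 0.13, adjusted p = 3.83e-06), a ratio of 8.08, was the largest rise of the 10 genes. Mpc2 (chr1:167391168-167411345, plus strand) read 95.4 and 86.6 FPKM and later 455 and 464 FPKM (2.32, SE 0.12, adjusted p = 7.50e-06). In fibroblasts they went opposite ways: Mpc1 rose from 23.3 and 23.5 FPKM to 34.4 and 39.6 FPKM (0.63, SE 0.13, adjusted p = 0.00605) while Mpc2 fell from 25.9 and 27.4 FPKM to 16.2 and 19.4 FPKM (-0.56, SE 0.12, adjusted p = 0.00961). The rise of Mpc1 was not called with the FPKM as deposited (0.29, adjusted p = 0.104) or with mitochondrially encoded genes removed (0.30, adjusted p = 0.101), and the fall of Mpc2 was not called without the second neonatal fibroblast library (-0.52, adjusted p = 0.0676) or when fibroblasts were fitted alone (adjusted p = 0.0704).

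Macrophage markers (7 of 7 measured) summed to 96.1 and 166 FPKM in neonatal and 968 and 761 FPKM in later fibroblasts, beside the carrier changes there, and their part was not tested. The ratio of Mpc1 to Mpc2 rose from 0.966 and 0.930 to 1.46 and 1.58 in cardiomyocyte libraries and from 0.902 and 0.860 to 2.12 and 2.05 in fibroblast libraries, as a description with no test.

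In ventricles Mpc1 read 51.0, 103, 280, 463 and 533 FPKM from E17 to PN90 (slope 0.89, SE 0.10, adjusted p = 0.00439) and Mpc2 170, 321, 417, 728 and 810 FPKM (slope 0.57, adjusted p = 0.00504). Both were higher at each later stage. The shares of short transcripts of the carrier genes differed between ventricle and cardiomyocyte libraries, and the cause was not tested. Mpc1-203, a coding model of 603 bases, held 36.2% to 40.5% of Mpc1 FPKM in cardiomyocytes and at most 0.0321% in ventricles. Mpc2-203, of 493 bases and with no reading frame, held 77.2% to 81.6% of Mpc2 FPKM in ventricles and 32.0% to 38.8% in cardiomyocytes. The rises in cardiomyocytes were about as large with the most abundant coding transcript alone (2.99 for Mpc1 and 2.20 for Mpc2). The gene 4930506C21Rik overlaps Mpc1 on the other strand with at most 11.7 FPKM as deposited, and use of strand in the counting was not found in the labels or the deposited tables.

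**Figure D4:**
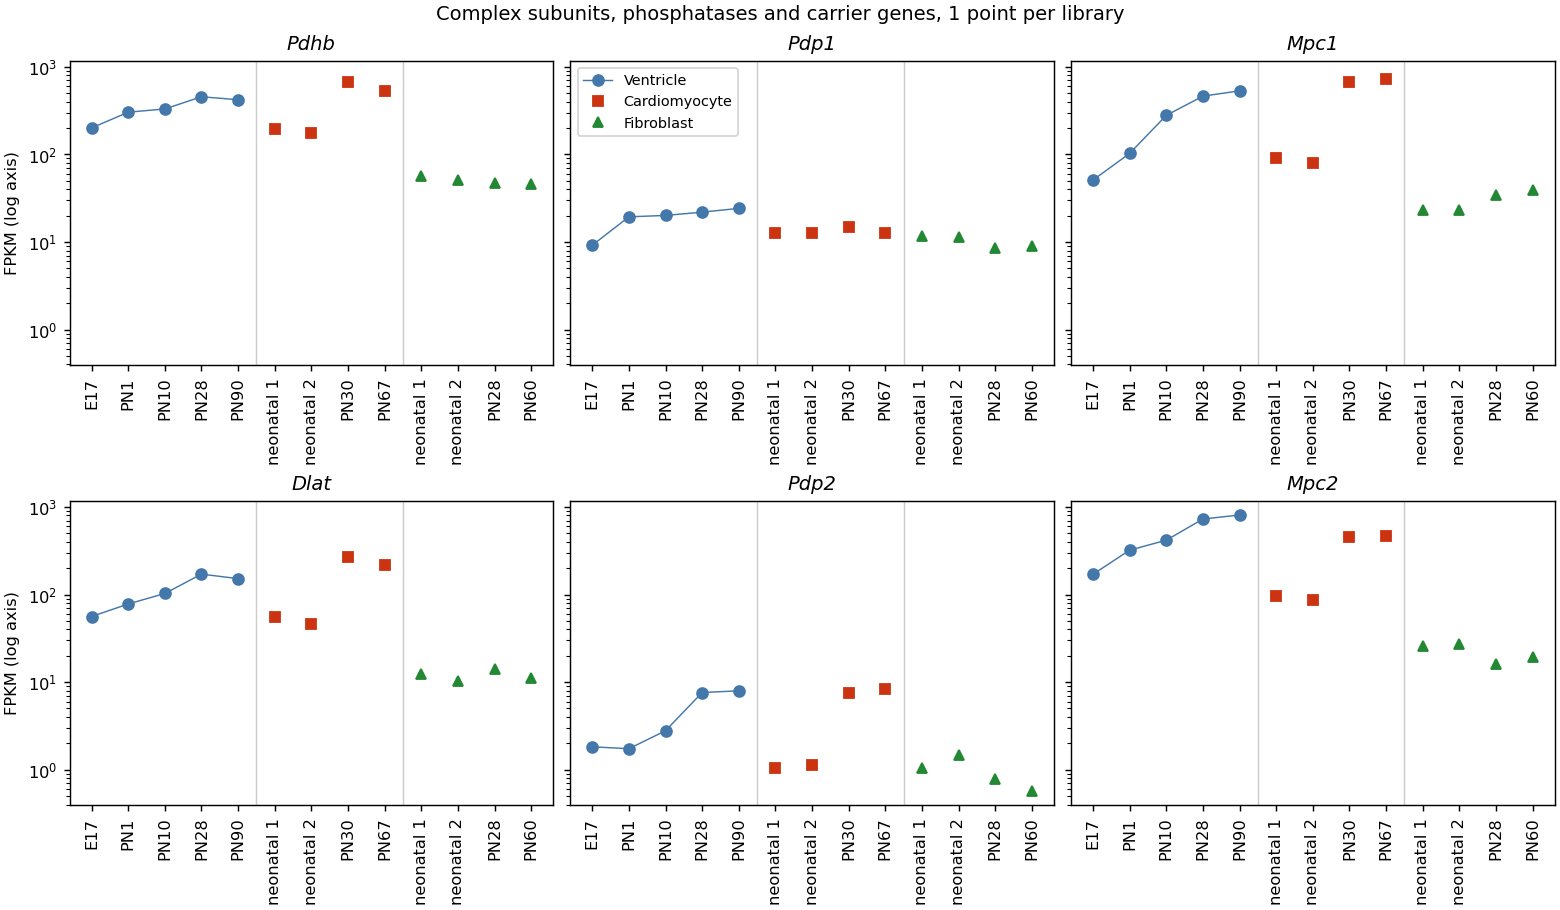
FPKM (log axis) of Pdhb, Dlat, Pdp1, Pdp2, Mpc1 and Mpc2 in each of the 13 libraries, 1 point per library, with ventricles joined in stage order. Pdp1 stays between 8.51 and 14.8 FPKM in the 8 cell libraries, while Mpc1 is at 80.5 to 92.2 FPKM in neonatal and 665 to 730 FPKM in later cardiomyocytes.

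**Figure D5:**
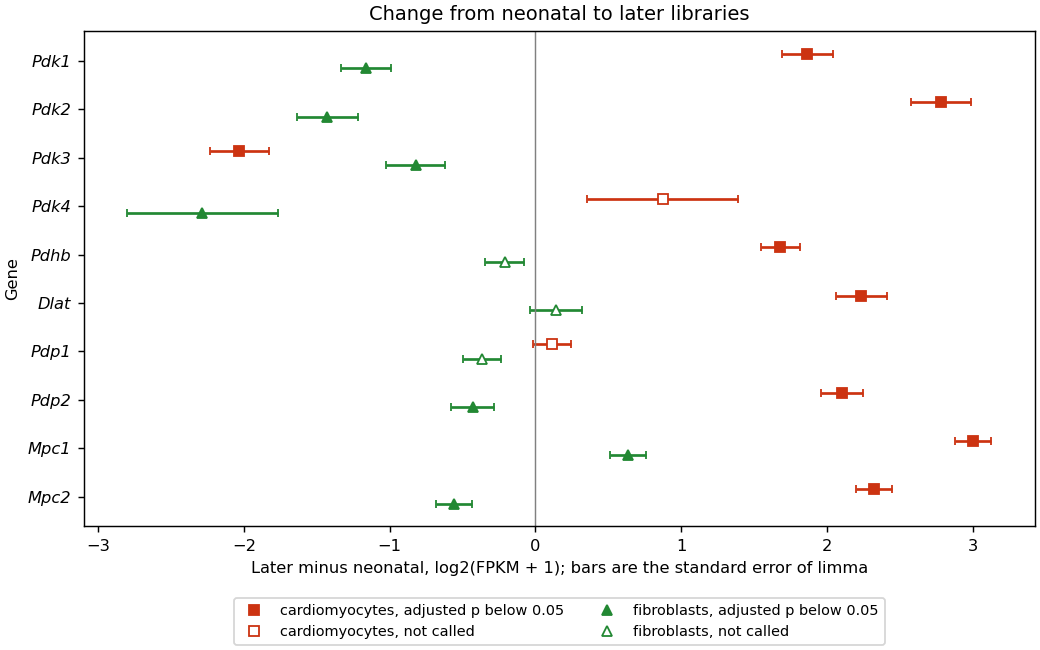
Later minus neonatal difference on the log2(FPKM + 1) scale for the 10 genes in cardiomyocytes (squares) and fibroblasts (triangles), with limma's standard error as bars and filled symbols for an adjusted p below 0.05. In all, 8 cardiomyocyte symbols are filled, Pdk4 (0.87) and Pdp1 (0.11) are open, and Pdk3 (-2.03) is the filled one to the left of 0.

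Between the cell types at birth, 7 of the 10 genes were higher in cardiomyocytes and 0 were higher in fibroblasts, beside 21.5% and 19.1% of all genes, 40.5% in either direction (53.0% of called genes were higher, and 40.6% with mitochondrially encoded genes removed). The gaps were 2.89 for Pdk2, 2.77 for Pdk4, 2.58 for Pdk1, 2.07 for Dlat, 1.84 for Mpc1, 1.76 for Pdhb and 1.73 for Mpc2. In the later class 9 were higher in cardiomyocytes and 1, Pdk3, in fibroblasts, beside 38.4% and 39.3% of all genes, 77.7% in either direction. Pdk4 stood 95.8 times and Pdk1 119 times above fibroblasts by ratio of means, over low fibroblast means of 3.11 and 0.672 FPKM. The smallest ratio above 1 was that of Pdp1, at 1.57.

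In order of level, Pdhb (185 FPKM) and Pdk4 (133 FPKM) led neonatal cardiomyocytes by class mean, followed by Mpc2 (91.0 FPKM) and Mpc1 (86.4 FPKM), whose library values overlapped. Later cardiomyocytes were led by Mpc1 (698 FPKM), Pdhb (597 FPKM) and Mpc2 (459 FPKM), while Pdk4 at PN67 lay above both Mpc2 values and at PN30 below those of Pdk2 and Dlat, and the values of Pdk2 and Dlat overlapped. That overlap rested on the short transcript Dlat-202: the deposited FPKM of the coding Dlat-201 was 134 and 111 at PN30 and PN67, below the 212 and 220 of Pdk2-201. Pdk3, at 0.992 FPKM, was last in later cardiomyocytes. The level of Mpc2 also held the short Mpc2-203, with no reading frame. Its only coding transcript, Mpc2-201, stood at 270 and 253 FPKM as deposited at PN30 and PN67, and at 71.6 and 67.1 in neonatal cardiomyocytes. In the neonatal libraries the coding Mpc1-208 (57.6 and 51.1) and Mpc1-203 (43.5 and 36.9) together lay above Mpc2-201. In later fibroblasts Pdhb (46.5 FPKM) and Mpc1 (37.0 FPKM) led, and Pdk1 (0.672 FPKM), Pdp2 (0.673 FPKM) and Pdk2 (0.857 FPKM) were the 3 lowest, with overlapping values.

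Genes around the switch were read from lists, whose counts stand beside 37.2% of all genes up and 29.8% down in cardiomyocytes (median 0.10) and 19.7% up and 20.8% down in fibroblasts (median -0.02). In the tricarboxylic acid cycle, which burns the acetyl-CoA, 16 of 16 tested genes rose in cardiomyocytes (median 2.09), led by Ogdh (3.00), Sucla2 (2.42) and Sdhb (2.31). In fibroblasts 9 of the 16 fell and 1 rose, with Idh2 at -3.24. In fatty acid oxidation, the rival source of acetyl-CoA, 21 of 22 rose in cardiomyocytes (median 1.85), among them Echs1 (2.83), Hadhb (2.73) and Acadm (2.70), and 15 of 22 fell in fibroblasts, Fabp3 by 4.05. Of 21 genes of glycolysis and glucose uptake, 12 rose, 3 fell and 6 were not called in cardiomyocytes (median 0.80). The 3 called genes with the largest changes all rose: Slc2a4, the insulin-responsive glucose transporter, by 4.09, Pfkfb2 by 3.39 and Hk2 by 3.07. Other routes of pyruvate gave 11 up and 1 down of 13, led by Gpt (3.39) and Me3 (3.38), and in fibroblasts Ldhb, the heart form of lactate dehydrogenase, fell by 2.38. Beside the fibroblast falls in these lists, all 9 cardiomyocyte markers tested fell in fibroblasts, with a median of -4.20. The part of cardiomyocyte RNA in those falls was not tested. Mitochondrial housekeeping genes, a list chosen for comparison, rose in cardiomyocytes in 20 of 23 cases with a median of 1.15. In fibroblasts 5 of the 23 rose, 3 fell and 15 were not called.

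Of 16 PPAR target genes 11 rose and 2 fell in cardiomyocytes and 1 rose and 8 fell in fibroblasts, with Plin5 (3.72) and Ech1 (3.70) the largest rises. Acaa2, Cpt1b, Fabp3, Acadm and Slc25a20 stood both in this list and in that of fatty acid oxidation, so the 2 counts are not separate results. A part of cardiomyocyte RNA in the fibroblast falls was not tested here either. Of 16 hypoxia targets, a group to which Pdk1 is commonly assigned, 6 rose and 6 fell in cardiomyocytes, shares near those of all genes (37.2% and 29.8%). Among regulators reported for kinase genes, Ppara (2.42) and Esrra (1.97) rose and Myc fell by 4.54 in cardiomyocytes, and Ppard (1.33) and Hif1a (1.00) rose in fibroblasts, where E2f1 fell by 1.26. In ventricles E2f1 fell (slope -0.48) and Pparg (0.48) and Epas1 (0.69) rose over the stages.

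Genes with the most similar course to each kinase were found by Pearson r of log2(FPKM + 1) over the 8 cell libraries. These points share 2 cell types and 2 stage classes, so high values are common: r exceeded 0.95 with 1277 genes for Pdk1, 1469 for Pdk2, 280 for Pdk4 and 67 for Pdk3. Pdk2 was nearest to Acadm, a fatty acid dehydrogenase (r = 0.9998 in cells and 0.96 over the 5 ventricles), Acat1 (0.9994 and 0.94) and Ndufa11 (0.9992 and 0.90). Pdk1 was nearest to Doc2g (0.9993 and 0.73), Nexn (0.9989 and 0.71) and Ndufc1 (0.9989 and 0.62). Pdk3 was nearest to Dyrk2, Gm10382 and Nid2 (0.98 each in cells), of which Nid2 kept a high r in ventricles (0.90) and Gm10382 reversed (-0.80). Pdk4 was nearest to Rapgef3, Bmf and Mindy1, whose r in ventricles was 0.78, -0.20 and 0.07. Pdk1 and Pdk2 followed each other in cells (r = 0.9974) and less so in ventricles (r = 0.40).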

How the data were processed

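Per the submitters' processing notes, reads were handled with TopHat2 2.0.5 and Cufflinks 2.1.1 against mm9, with no annotation release named in the labels. The deposited tables hold FPKM of 94696 transcripts per library, with the authors' confidence bounds of FPKM, a coverage signal and a status for each transcript. The deposited coverage per FPKM, which rises with depth, had a median of 19.5 to 32.8 over the 13 libraries. Fragment totals are not in the files used, so depth is unknown and no count test was used. Cufflinks shares fragments among overlapping transcripts by an estimate. In 39 of 130 cases the FPKM of a member's main transcript lay outside its own deposited bounds, so these were not used as errors.

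Transcript identifiers were matched to GENCODE M21 for names (82379 of 94696, 87.0%). Transcripts of at least 200 bases were summed per gene. Genes with a transcript of failed or excess status (90 in cells, 64 in ventricles) were left out. No member was left out. Libraries were scaled by the median of ratios within each set. Testing used log2(FPKM + 1) and genes whose mean FPKM reached 1, by limma 3.58.1 (R 4.3.3, trended empirical Bayes, two-sided): 4 classes in cells (4 residual degrees of freedom) and a slope over stage order in ventricles (3). The pseudocount understates changes of low genes. The fit was also run on simulated data with known changes and independent normal noise in each library. Such data do not test the p-values for the case that neonatal libraries share a source. Members and lists were chosen with earlier results of these data known. Every member is named in each comparison, and from a list up to 3 called genes with the largest change, all genes of the complex list, and the 3 genes most like each kinase. Values of 1 list gene are not reported here. Gene positions are mm9, counted from 1, from the deposited tables, and promoters are RefSeq windows of GRCm38.p6.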

Additional observations from a re-analysis of the deposited data

Results flagged for a closer look

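For 9 of the 10 genes the change from neonatal to later libraries differed between cardiomyocytes and fibroblasts by limma's test of the difference itself, beside 32.2% of all genes with a higher and 26.3% with a lower difference. On the log2 scale, cardiomyocyte change minus fibroblast change, it was 3.03 for Pdk1, 4.21 for Pdk2, -1.21 for Pdk3, 3.16 for Pdk4, 1.89 for Pdhb, 2.1 for Dlat, 2.53 for Pdp2, 2.37 for Mpc1 and 2.88 for Mpc2. Pdp1 missed the threshold (0.48, adjusted p = 0.0544). For Pdk4 the value was 2.22 without the PN67 and 4.09 without the PN30 cardiomyocyte library, called in both cases. Cardiomyocyte markers, at a median difference of 6.50, moved the same way.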

How the results depend on the processing

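No paired analysis was possible because the labels give no replicate numbers shared between groups. Of the members' results under settings that kept all libraries, 589 kept direction and side of the threshold, 10 gained a call, 22 lost one and 7 turned. With the FPKM as deposited and with mitochondrially encoded genes removed, Pdp1 in cardiomyocytes turned to -0.22 and -0.32, Dlat in fibroblasts to -0.19 and -0.18, and 0 members rose in fibroblasts. The second of these also turned Pdp1 between the cell types at birth to -0.018. With the most abundant coding transcript alone, added after seeing the data, Pdp1 was -0.068 in cardiomyocytes and -0.18 between the cell types at birth. With a mean FPKM of at least 5 no member (0) was lower in cardiomyocytes, in the difference of changes or in later cardiomyocytes against fibroblasts, since Pdk3 was no longer tested. Fibroblasts fitted alone gave 3091 called genes instead of 4888, and a ventricle slope on log2 of days (birth as embryonic day 20) gave 1524 instead of 4060, with 3 members rising; the cause was not tested. Pdk1 led the kinases in 1 library with the most abundant transcript or coding transcripts alone.

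Leaving out libraries in turn, called genes ranged from 2603 to 6475 for the cell types at birth (2603, 2964 and 2941 without the first or second cardiomyocyte or the first fibroblast library, against 4894), from 2728 (without the second neonatal library) to 6156 in fibroblasts and from 1247 (without E17) to 4508 in ventricles (2432 without PN1, 2332 without PN28). Members down ranged from 2 to 6 in fibroblasts and from 0 to 1 between later cell types, and members up in ventricles from 3 to 7. Pdk4 in cardiomyocytes ranged from -0.062 (without PN67) to 1.81 (without PN30), Dlat in fibroblasts from -0.0060 (without PN28) to 0.286, and Pdp2 between the cell types at birth from -0.249 to 0.019 (without the second neonatal fibroblast library). Single libraries for later ages and ventricle stages limit every statement on 1 age.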
